A study of Arabidopsis thaliana with 3 samples.

Results

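The genes described here encode subunits of the proteasome in Arabidopsis thaliana, chosen by annotation alone: every gene whose deposited description holds the words "26S proteasome" or "proteasome subunit". The rule found 48 of the 30271 genes in the deposited tables. By their annotated role 12 encode alpha ring subunits of the core particle and 10 beta ring subunits. Another 7 encode ATPase subunits (RPT) of the regulatory particle and 15 its non-ATPase subunits (RPN). The last 4 have looser annotations: AT4G08140 (non-ATPase subunit-like), AT4G27680 and AT5G53540 (RPT6-like) and AT5G57950 (putative regulatory subunit). The rule looks only at descriptions, so 9 genes that carry a proteasome subunit symbol without those words, such as RPT3, RPN10 and PAG1, fell outside it.

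The proteasome degrades proteins that carry ubiquitin chains. Its core particle is a barrel whose outer alpha rings gate the entrance and whose inner beta rings hold the proteolytic sites, and the regulatory particle at its ends binds ubiquitinated proteins, removes the ubiquitin and unfolds the protein with its ring of ATPases. In Arabidopsis most subunits are encoded by a pair of close paralogs, and the NAC transcription factors NAC53 and NAC78 are known to activate proteasome genes when the proteasome is inhibited. The core of the proteasome-related promoter element described for these genes is TGGGC.

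Whole seedlings aged 9 days were sequenced as stranded libraries of total RNA after depletion of ribosomal RNA. The WT group was a cross of the accessions Ws and Col-0. T12 and T34 are 2 populations of gip1 gip2 double mutants, from a cross between the insertion lines gip1 GABI_213D01 and gip2 FLAG_36406. The design text gives their root phenotypes an increasing severity, and T34 is taken here as the stronger of them. The mutated genes encode small subunits of the complexes that hold gamma-tubulin and start new microtubules. Each group had 3 libraries. Nothing in the labels says that the libraries of a group came from separate growths, so p-values measure only the spread between these libraries, which may be technical.

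The libraries held 20963358 to 30438933 reads. Ribosomal RNA took 0.873% to 1.70% of them in T12, 44.9% to 49.3% in T34 and 22.4% to 95.7% in WT, so this share moved with the groups, and its part in the results was not tested. WT replicate 2 stood apart: it kept only 649387 nuclear reads outside ribosomal RNA, against 6291793 to 15287573 in the other libraries, and 1 read there was worth 11.7 normalized counts. The median proteasome gene had 44 reads in that library and 424 to 998 in the others. The labels list 1 library under both WT and T34 and another under no group. They were taken as WT replicate 1 and T34 replicate 3, since the authors' deposited fold changes match that reading (median absolute difference of log2 fold changes 0.04, against 0.29 with them exchanged). GIP2 had 0 to 5 reads in every library, WT included, and so gave no check of the labels.

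Promoters are shown for RPN8B and RPN6, which rose in both mutant populations under each of 19 alternative settings, for RPT5B, which fell, and for its close paralog RPT5A, which did not pass the test. Each line gives the 250 bases before the annotated gene start, 5′ to 3′ on the gene's strand, from RefSeq assembly TAIR10.1, with TGGGC or its reverse complement GCCCA in capitals. RPN8B lies at chr3:3528801-3531724 on the plus strand. RPN6 lies at chr1:10180302-10182808 on the plus strand, RPT5A at chr3:1603359-1606243 on the plus strand and RPT5B at chr1:2936528-2939363 on the minus strand. The windows printed are chr3:3528551-3528800 for RPN8B, chr1:10180052-10180301 for RPN6, chr3:1603109-1603358 for RPT5A and chr1:2939364-2939613 for RPT5B.
RPN8B: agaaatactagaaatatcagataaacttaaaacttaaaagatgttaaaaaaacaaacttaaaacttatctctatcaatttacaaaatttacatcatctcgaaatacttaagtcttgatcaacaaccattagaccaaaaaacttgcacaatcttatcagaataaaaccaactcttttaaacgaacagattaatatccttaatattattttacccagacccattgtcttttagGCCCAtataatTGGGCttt
RPN6: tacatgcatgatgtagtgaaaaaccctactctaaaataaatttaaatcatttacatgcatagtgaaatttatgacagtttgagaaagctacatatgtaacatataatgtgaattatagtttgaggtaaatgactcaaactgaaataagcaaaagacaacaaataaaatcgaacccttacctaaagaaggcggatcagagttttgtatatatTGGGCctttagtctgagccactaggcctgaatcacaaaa
RPT5A: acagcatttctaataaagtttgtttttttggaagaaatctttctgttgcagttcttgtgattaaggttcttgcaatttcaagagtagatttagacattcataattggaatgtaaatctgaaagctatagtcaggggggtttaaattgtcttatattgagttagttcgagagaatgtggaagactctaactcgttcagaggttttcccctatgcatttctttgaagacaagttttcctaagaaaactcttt
RPT5B: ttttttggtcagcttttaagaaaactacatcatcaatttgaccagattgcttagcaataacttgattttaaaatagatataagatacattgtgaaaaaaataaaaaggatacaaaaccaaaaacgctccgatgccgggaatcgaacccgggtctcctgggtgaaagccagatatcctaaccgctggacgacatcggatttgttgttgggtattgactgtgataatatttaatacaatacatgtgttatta

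In the window from 250 bases before to 50 bases after the gene start, TGGGC on either strand was present in 28 of the 48 genes (58.3%), against 7132 of 27443 protein-coding genes of the assembly (25.99%). The longer form TGGGCC, every match of which also holds TGGGC, was present in 20 members (41.7%) and in 15.5% of all genes. With the window ended at the gene start, the shares for TGGGC were 52.1% and 22.7%. RPN8B held 3 matches, of which 1 lies after the start and is not printed. RPN6 held 1 match, 39 bases before the start. RPT5A held none, and the 1 match of RPT5B lies after the start, at base 19. By role the motif was in 7 of the 12 alpha, 8 of the 10 beta, 2 of the 7 RPT, 9 of the 15 RPN and 2 of the 4 other genes. It was in 8 of the 12 members that passed a test against WT and in 20 of the 35 that were tested and did not pass. A match describes the letters in the window, not a bound site.

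Most proteasome genes kept close to their WT level in both mutant populations, in a data set where a large share of genes changed. The test was limma on log2 of the normalized count plus 1, over 20871 genes, and a gene was called where its adjusted p (Benjamini-Hochberg) was under 0.05. Of the 48 members 47 passed the filter on low values. The one left untested, AT4G08140, had a normalized count of 2.46 in WT replicate 1 and 0.837 in T34 replicate 3 and was at 0 in the other 7 libraries. In T12 against WT 3 members rose, 4 fell and 40 did not pass, which is 14.9% called, against 40.2% of all genes tested (23.1% higher and 17.0% lower). In T34 against WT 8 rose, 1 fell and 38 did not pass, which is 19.1% called, against 45.2% of all genes (25.2% higher, and 4166 of the 20871 genes lower). These comparisons share the WT libraries. The split depends on the scaling: with upper quartile factors 3 rose and 8 fell in T12 and 6 rose and 3 fell in T34, and scaled to nuclear reads other than ribosomal RNA 2 rose and 11 fell in T12 and 4 rose and 3 fell in T34. The members called were then 23.4% and 19.1%, and 27.7% and 14.9%, against 42.4% and 46.8%, and 43.4% and 46.9%, of all genes. These scalings lowered the median log2 fold change of all genes by 0.107 and 0.116, and by 0.146 and 0.132. As the samples are whole seedlings, fewer cells of a type and less RNA per cell cannot be told apart.

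The members' changes were also small in size. The median absolute log2 fold change over the 47 members was 0.18 in T12 against WT and 0.18 in T34 against WT, against 0.49 and 0.54 over all genes tested. The signed medians were 0.06 and 0.07, next to 0.06 and 0.06 over all genes. They were negative under both other scalings (-0.049 and -0.043, and -0.089 and -0.059), as were those over all genes (-0.044 and -0.054, and -0.083 and -0.070). The 95% interval of the log2 fold change lay wholly within 1 of 0 for 40 members in T12 and 42 in T34, that is 85.1% and 89.4%, against 48.3% and 45.6% of all genes tested. Groups did not overlap for 15 members in each comparison (31.9%), against 51.3% and 56.0% of all genes. Among the 4080 genes tested whose mean over the 9 libraries lay in the range of the middle members (329 to 888 normalized counts), 50.2% were called in T12 and 52.9% in T34. Of the 23 members in that range 13.0% and 21.7% were called.

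**Figure D1:**
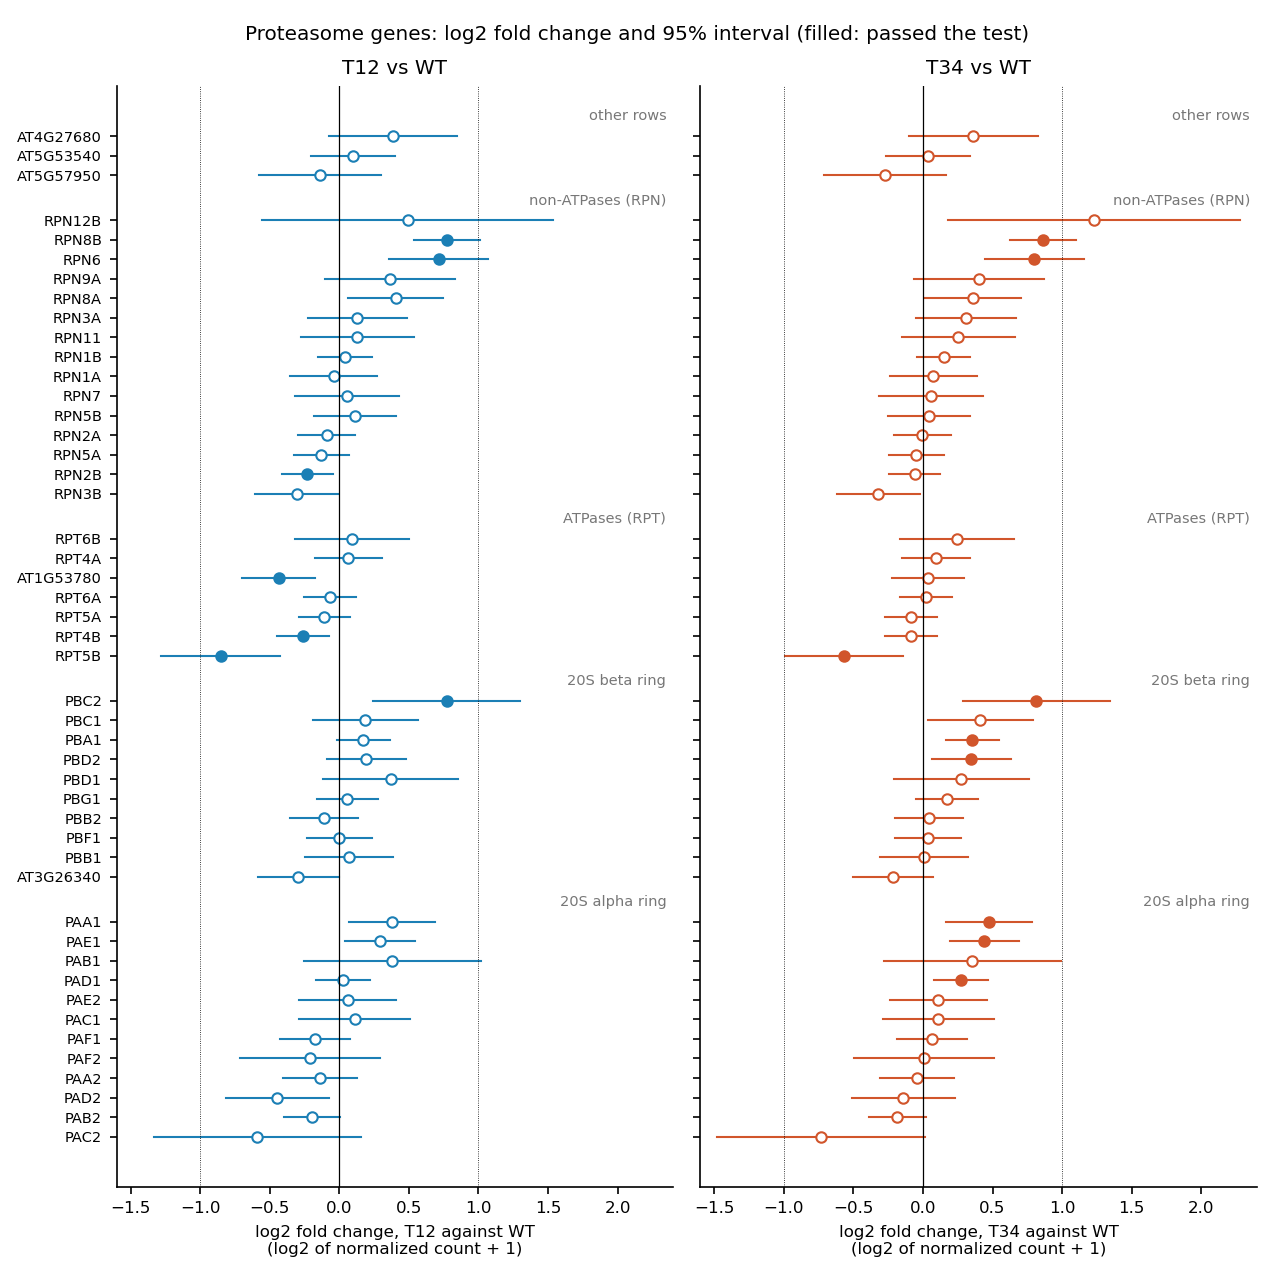
Log2 fold change of the 47 tested proteasome genes against WT, in T12 (left) and T34 (right), grouped by role; points are estimates on log2 of the normalized count plus 1, lines are 95% intervals, and filled points passed the test (limma, 3 libraries per group). Most intervals cross 0 and lie between the dotted lines at 1 and -1; the filled points are 7 in T12 and 9 in T34.

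**Figure D2:**
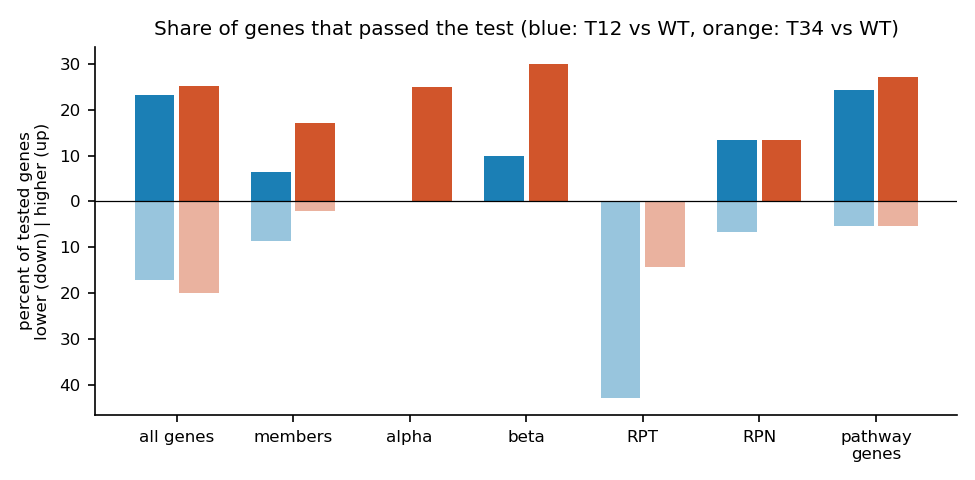
Percent of tested genes that passed the test in T12 (blue) and T34 (orange) against WT, with genes that were higher drawn upward and genes that were lower drawn downward in a paler shade. The bars of the 47 members reach 14.9% and 19.1% in all, against 40.2% and 45.2% over all genes; the tall downward bar of the RPT genes in T12 is 3 of 7 genes.

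The member with the smallest adjusted p in both comparisons was RPN8B, 1 of the pair of genes for RPN8, the partner of the deubiquitinating subunit RPN11 in the lid of the regulatory particle. RPN8B had 138, 129 and 136 normalized counts in WT replicates 1 to 3, 237, 214 and 239 in T12, and 249, 242 and 243 in T34. Every mutant library lay above every WT library. The gene was 1.71-fold higher in T12 (log2 fold change 0.77 ± 0.10, SE, limma adjusted p = 0.000447) and 1.82-fold higher in T34 (0.86 ± 0.10, adjusted p = 0.00019).

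RPN6 encodes a scaffold subunit that helps to hold the lid to the core particle. Its normalized counts were 1054, 654 and 932 in WT, 1490.0, 1373 and 1392 in T12, and 1467, 1522 and 1525 in T34. Every mutant library lay above every WT library, T12 and T34 overlapped, and WT replicate 2 was the lowest library. RPN6 rose by 0.72 ± 0.16 on the log2 scale in T12 (limma adjusted p = 0.00602) and by 0.80 ± 0.16 in T34 (adjusted p = 0.00288). Without WT replicate 2 the rises were 0.52 and 0.60 and passed the test. On a scale per length its level went from 407 normalized counts per kb of exon in WT to 655 in T12 and 695 in T34, while RPN7, another scaffold subunit of the lid, stood at 689, 702 and 703.

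Of the 15 RPN genes 20% passed in T12 and 13.3% in T34, against 40.2% and 45.2% of all genes tested. Of the other 13 RPN genes 1 passed, in T12. It was RPN2B, a gene for a large scaffold subunit of the base, which had 977, 947 and 910.0 normalized counts in WT, 788, 811 and 818 in T12, and 863, 945 and 909 in T34. It fell by 0.23 ± 0.08 on the log2 scale in T12, just inside the threshold (limma adjusted p = 0.04999), and the call was lost under 12 of the 19 alternatives. In T34 its log2 fold change was -0.06. RPN12B, whose annotation is putative, had 6.14, 23.4 and 8.92 normalized counts in WT, 12.6, 16.7 and 19.1 in T12, and 20.6, 26.9 and 36.0 in T34. The groups overlap through WT replicate 2, where its value rests on 2 reads. Its log2 fold change in T34 was 1.23 ± 0.46 (limma adjusted p = 0.056, not past the threshold). The count tests edgeR and DESeq2 called it (1.76 and 1.72, adjusted p = 0.00455 and 0.00631), as did limma without WT replicate 2 (1.74, adjusted p = 0.00179). The remaining RPN genes, among them RPN1A, RPN2A, RPN5A, RPN7 and RPN11, had log2 fold changes from -0.32 to 0.41 in the 2 comparisons.

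Among the ATPase genes the calls were falls. RPT5B, 1 of the pair for the RPT5 ATPase, had 287, 362 and 224 normalized counts in WT, 135, 187 and 156 in T12, and 203, 193 and 181 in T34. Every mutant library lay below every WT library. RPT5B fell by 0.85 ± 0.19 on the log2 scale in T12 (limma adjusted p = 0.00627) and by 0.57 ± 0.19 in T34 (adjusted p = 0.0348). Without WT replicate 2, its highest library, the fall in T34 was 0.40 and no longer passed (adjusted p = 0.0663), while that in T12 was 0.68 and passed.

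AT1G53780, annotated as an ATPase of the regulatory complex, had 609, 549 and 574 normalized counts in WT, 427, 399 and 454 in T12, and 549.6, 688 and 548 in T34. The T12 libraries lay below all others, and WT and T34 overlapped. It fell by 0.44 ± 0.12 in T12 against WT (limma adjusted p = 0.0149), and its log2 fold change in T34 was 0.04 ± 0.12. RPT4B, a gene for the RPT4 ATPase, had 937, 970.0 and 979 normalized counts in WT, 764, 855 and 793 in T12, and 895, 911 and 909 in T34. It fell by 0.26 ± 0.08 in T12 (adjusted p = 0.0314), a call lost under 7 of the 19 alternatives. RPT4A, RPT5A, RPT6A and RPT6B did not pass in either comparison, with log2 fold changes from -0.11 to 0.24. RPT6A and RPT6B lie 1318 bases apart and share 94.4% of their coding bases, so reads may have been split between them.

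**Figure D3:**
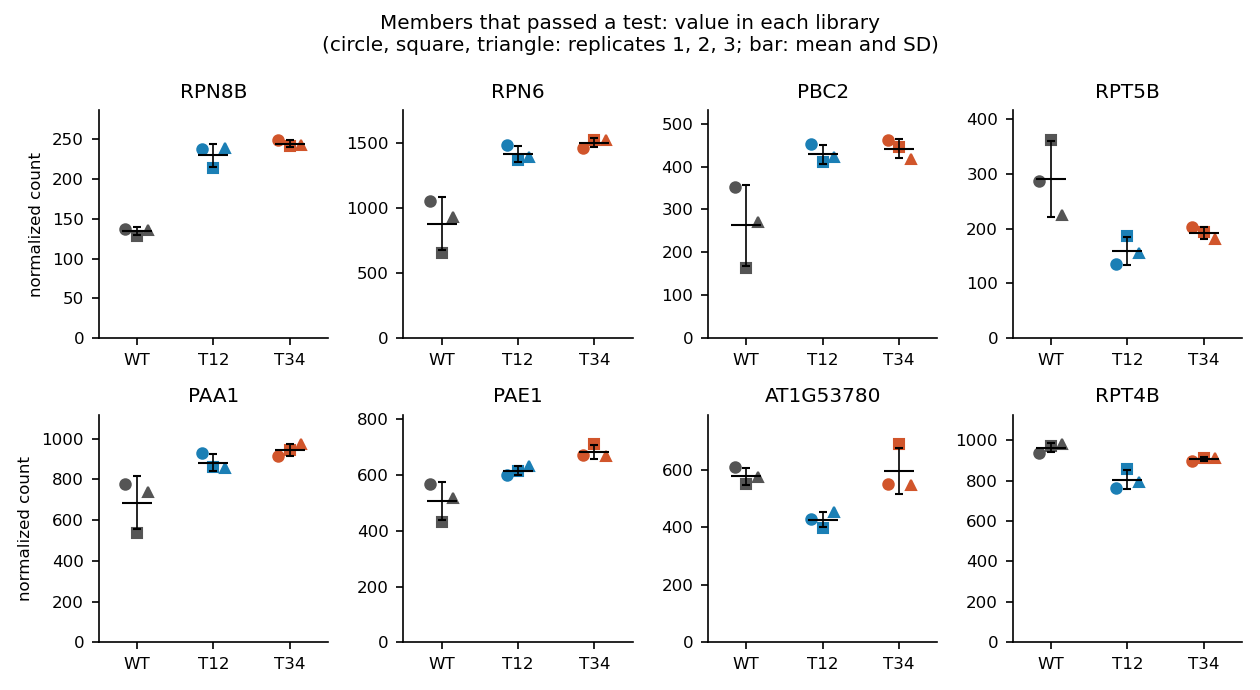
Normalized counts of 8 proteasome genes that passed a test against WT, in each library (circles, squares and triangles are replicates 1, 2 and 3 of WT in grey, T12 in blue and T34 in orange; the black bar is the mean with 1 SD). RPN8B, RPN6 and PBC2 are higher in every mutant library than in any WT library and RPT5B is lower, while AT1G53780 is low in T12 alone.

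In the beta ring 1 of 10 genes rose in T12 (10%) and 3 rose in T34 (30%), and none fell. Of all genes tested 23.1% rose in T12 and 25.2% in T34. PBC2 encodes a non-catalytic beta subunit. It had 353, 164 and 271 normalized counts in WT, 453, 409.7 and 423 in T12, and 462, 445 and 419 in T34, and the WT libraries lay below all mutant ones. It rose by 0.77 ± 0.23 on the log2 scale in T12 (limma adjusted p = 0.0266) and by 0.82 ± 0.23 in T34 (adjusted p = 0.0189). The size rests on WT replicate 2, since without that library the rises were 0.47 and 0.51, which passed the test.

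PBA1, which encodes a catalytic beta subunit, had 862, 783 and 763 normalized counts in WT, 888, 934 and 891 in T12, and 1037, 1025 and 1016 in T34. The groups stood in that order without overlap. PBA1 rose by 0.36 ± 0.08 in T34 (limma adjusted p = 0.00753), and in T12 its log2 fold change was 0.17 (adjusted p = 0.13). With each library scaled to its nuclear reads other than ribosomal RNA, the change in T34 was 0.22 and did not pass (adjusted p = 0.0753). PBD2, another non-catalytic beta gene, had 380.2, 292 and 315 normalized counts in WT, 369, 388 and 367 in T12, and 413, 463 and 378 in T34. WT and T34 overlapped, and its rise of 0.35 ± 0.13 in T34 (adjusted p = 0.0485) was lost under 13 of the 19 alternatives. PBB1 and PBB2, genes of another catalytic subunit, had log2 fold changes from -0.11 to 0.07. AT3G26340, annotated only as a beta subunit, had -0.29 in T12, where it did not overlap with WT, and -0.22 in T34. It did not pass (limma adjusted p = 0.0965 and 0.199). PBE1, a beta gene outside the rule, had -0.06 and -0.01.

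In the alpha ring no gene passed in T12, against 40.2% of all genes tested. In T34 3 of 12 rose (25%), next to 25.2% of all genes. PAA1 had 779, 538 and 739 normalized counts in WT, 928, 862 and 856 in T12, and 913, 942 and 971 in T34, and rose by 0.48 ± 0.14 in T34 (limma adjusted p = 0.0189). Its log2 fold change in T12 was 0.38 (adjusted p = 0.0514), and without WT replicate 2 the rise in T34 was 0.31 and passed. PAE1 had 568, 432 and 516 normalized counts in WT, 599.8, 616 and 631 in T12, and 671, 709.7 and 667 in T34. Its libraries stood in the order WT, T12, T34 without overlap, with a rise of 0.44 ± 0.11 in T34 (adjusted p = 0.0102) and a log2 fold change of 0.29 in T12 (adjusted p = 0.0619). PAD1 had 509.8, 561 and 501 normalized counts in WT, 543, 511 and 545 in T12, and 629, 636 and 631 in T34. The T34 libraries lay above all others, and the rise of 0.27 ± 0.09 in T34 (adjusted p = 0.0299) was lost under 8 of the 19 alternatives. The other 9 alpha genes had log2 fold changes from -0.73 to 0.38, and the lowest was PAC2, whose annotation is putative and whose normalized counts were 10 to 24 in all libraries.

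The WT values were spread more widely than those of the mutants, largely through 1 library. WT replicate 2 held the lowest of the 9 values for 26 of the 47 members and the highest for 7. The median coefficient of variation over the members was 15.7% in WT and 6.71% in WT without that library, against 5.12% in T12 and 4.01% in T34. Without WT replicate 2, 6 members rose and 7 fell in T12 (27.7% called, against 49.5% of all genes tested), and 8 rose and none fell in T34 (17.0%, against 54.2%). The median log2 fold change over the members was then -0.084 in T12 and 0.0068 in T34, next to 0.021 and 0.026 over all genes. PAA2, RPN1A and PAF1 then fell and PBB1, PAA1 and RPN12B rose in T12, by 0.21 to 0.27 on the log2 scale apart from RPN12B (1.00).

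The 2 mutant populations were close to each other in these genes. In T34 against T12 limma called none of the 47 members, against 2.38% of all genes (0.858% higher and 1.52% lower). It called 0 of the 23 members of middle level, against 2.52% of genes in that range. An unadjusted p under 0.05 was found for 2 members, beside 3210 of the 20871 genes tested. Groups did not overlap for 19 members (40.4%), against 33.0% of all genes. The count tests edgeR and DESeq2 each called 1 member, AT1G53780, higher in T34 by 0.47 and 0.48 (adjusted p = 0.0392 and 0.0137), beside 6.55% of all genes by edgeR and 7.70% by DESeq2. By limma its log2 fold change was 0.47 ± 0.12 (adjusted p = 0.079). The median log2 fold change was 0.09 over the members and 0.00 over all genes. A positive value was found for 36 of the 47 members and for 10577 of the 20871 genes tested. The 95% interval lay within 1 of 0 for 46 of the 47 (97.9%, against 68.5% of all genes). The members called in T34 and not in T12, such as PBA1, PAE1 and PAD1, were not shown to differ between the populations (adjusted p = 0.349, 0.624 and 0.206).

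As a share of nuclear reads outside ribosomal RNA, the 48 genes together took 0.348% ± 0.00192 in T12 and 0.374% ± 0.00224 in T34 (SD, n = 3). In WT they took 0.376% ± 0.0408, and the WT range of 0.339% to 0.420% spans both mutant groups.

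On a scale per kb of exon, the levels of the 47 tested members in WT ran from 13.2 normalized counts per kb for RPN12B, 23.5 for PAC2 and 40.03 for PAF2 to 755 for RPT5A and 862 for PBF1. The untested AT4G08140 stood at 3.21. When the genes of a pair are summed, the sums and the single genes stood between 156 (AT3G26340) and 1079 (PAA) normalized counts per kb in WT. RPN12B and the 4 loosely annotated genes are left out of this range. The sums hold members only: PBE1 and RPT1A, outside the rule, had WT means of 901 and 1371 normalized counts. The value of a single gene, such as AT3G26340, may therefore be only part of a subunit's level. The summed RPN8 genes went from 591 ± 110 per kb in WT to 808 ± 44.3 in T12 and 797 ± 44.3 in T34 (SD, n = 3). The summed RPT5 genes stood at 946 ± 76.1 in WT, 805 ± 9.499 in T12 and 836 ± 15.9 in T34. RPT5A, the stronger gene of the pair, did not pass.

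Within the 17 paralog pairs, which share 80.3% to 94.4% of their coding bases, no pair had log2 fold changes that differed by 1 or more in any comparison. The largest differences were 0.75 in T12 against WT (RPT5), 0.84 in T34 against WT (PAC, where PAC2 is near its floor) and 0.26 in T34 against T12 (RPT5). The ratio of the 2 genes was free of overlap between groups for 5 pairs in T12 against WT, 7 in T34 against WT and 3 in T34 against T12. No such count was made for other gene pairs, so it is not known whether these numbers are particular to proteasome genes. Of all single genes tested, 51.3%, 56.0% and 33.0% did not overlap in these comparisons. RPT5B made up 17.7%, 21.7% and 15.6% of the RPT5 normalized counts in WT, 9.79%, 13.9% and 11.6% in T12, and 14.3%, 13.7% and 13.2% in T34, lower in every mutant library than in any WT library. PBC2 made up 40.1% ± 3.33 of its pair in WT, 50.05% ± 1.07 in T12 and 46.9% ± 1.88 in T34 (SD, n = 3), and PAA2 went the other way, from 53.7% ± 1.05 to 44.8% ± 1.23 and 44.8% ± 1.68. RPN8B took 14.4% ± 2.33 of its pair in WT, 17.7% ± 1.222 in T12 and 19.1% ± 0.919 in T34. Its share overlapped between WT and T12 through WT replicate 2, at 16.9% against 12.4% and 13.8% in WT replicates 1 and 3. The lowest T12 share was 16.8%, and in WT replicate 2 RPN8B had 11 reads. RPN8A had log2 fold changes of 0.41 in T12 and 0.36 in T34 and did not pass (limma adjusted p = 0.0599 and 0.0816).

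**Figure D4:**
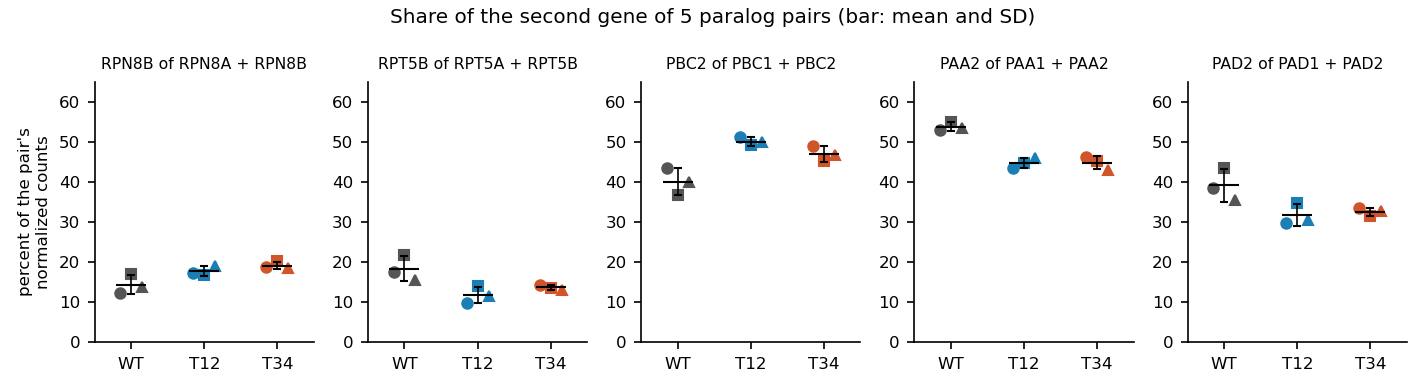
Share of the second gene in the normalized counts of 5 paralog pairs, in percent, by library (circles, squares and triangles are replicates 1, 2 and 3; the black bar is the mean with 1 SD). PBC2 takes a larger share in the mutant libraries than in WT, and RPT5B, PAA2 and PAD2 a smaller one; the RPN8B shares of WT and T12 overlap.

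The genes around the proteasome were taken from 4 lists of 38 loci, of which 37 were tested and 1, AT5G38650, was not analysed here. In T12 9 rose and 2 fell (29.7%), and in T34 10 rose and 2 fell (32.4%), against the 40.2% and 45.2% of all genes tested. This split also depends on the scaling. With upper quartile factors 7 rose and 6 fell in T12 and 6 rose and 4 fell in T34, against 42.4% and 46.8% of all genes called. Scaled to nuclear reads other than ribosomal RNA the counts were the same, against 43.4% and 46.9% of all genes. None was called in T34 against T12 by limma, edgeR or DESeq2, beside 2.38%, 6.55% and 7.70% of all genes. By limma 5 of the 37 had an unadjusted p under 0.05, beside 3210 of the 20871 genes tested. The median absolute log2 fold changes were 0.24 and 0.29 against WT.

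Of the 2 transcription factors, NAC78 rose and NAC53 did not pass. NAC78 had 677, 526 and 644 normalized counts in WT, 1129, 1245 and 1269 in T12, and 1355, 1532 and 1557 in T34, with no overlap between any of the groups. It rose by 0.99 ± 0.12 on the log2 scale in T12 (limma adjusted p = 0.000211) and by 1.27 ± 0.12 in T34 (adjusted p = 3.91e-05). NAC53 had 749, 444 and 512 in WT, 481, 489 and 526 in T12, and 743, 645 and 615 in T34, with log2 fold changes of -0.15 and 0.26.

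Among 10 tested genes of assembly factors and alternative caps none passed in T12 and 1 in T34, against 40.2% and 45.2% of all genes tested. It was AT5G14710, annotated as a proteasome assembly chaperone-like protein. It rose by 0.48 ± 0.16 (limma adjusted p = 0.0368), a call lost under 12 of the 19 alternatives. PA200, the gene of an alternative cap of the core particle, had log2 fold changes of 0.10 and 0.22. AT3G53970, annotated as a probable proteasome inhibitor, had -0.03 in T12 and 0.31 in T34 (adjusted p = 0.056). The list also holds AT5G57950, which is a member as well.

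The list of unfoldase and shuttle genes had 5 that rose and 1 that fell of 13, in T12 and in T34 alike, which is 46.2% called and close to the share of all genes tested (40.2% and 45.2%). CDC48 is the hexameric ATPase that extracts ubiquitinated proteins and hands them to the proteasome. Its genes moved unequally. CDC48A had 5657 to 7060.0 normalized counts in WT, 5971 to 6137 in T12 and 6495 to 6795 in T34, and log2 fold changes of -0.08 and 0.05. CDC48B (AT3G53230, described in the tables as CDC48 homolog D) had 358, 304 and 254 normalized counts in WT, 643, 782 and 863 in T12, and 829, 1055 and 917 in T34. It rose by 1.32 ± 0.16 in T12 (limma adjusted p = 0.000247) and by 1.62 ± 0.16 in T34 (adjusted p = 6.07e-05).

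CDC48C (AT5G03340, described as homolog E) had 448, 491 and 429.5 normalized counts in WT, 1283, 1521 and 1222 in T12, and 1256, 1439 and 1593 in T34. It rose by 1.55 ± 0.12 (limma adjusted p = 2.19e-05) and 1.64 ± 0.12 (1.31e-05). UFD1, which encodes a cofactor of CDC48, rose by 0.40 and 0.30 (adjusted p = 0.00686 and 0.0222), and DDI1, the gene of a shuttle-like protein, by 0.43 and 0.45 (0.0268 and 0.0197). Both other scalings ended the DDI1 calls and that of UFD1 in T34, and over the 19 alternatives the DDI1 calls were lost under 7 in T12 and 6 in T34 and that of UFD1 in T34 under 6. RAD23 proteins are shuttle receptors that carry ubiquitinated proteins to the proteasome. RAD23C fell by 1.17 and 0.98 (0.00013 and 0.000295), and RAD23B and RAD23D did not pass.

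Of the 12 genes of ubiquitin, its activation and its removal, 3 rose and 1 fell in each mutant population. That is 33.3% called, against 40.2% and 45.2% of all genes tested. UBQ11, a polyubiquitin gene, had 2444, 1729.7 and 2543 normalized counts in WT, 6774, 6753 and 6366 in T12, and 7571, 6787 and 6505 in T34. It rose by 1.59 ± 0.15 (limma adjusted p = 5.39e-05) and by 1.65 ± 0.15 (3.59e-05). UBQ14 rose by 0.68 and 0.77 (adjusted p = 0.00441 and 0.00199) and UBP6, the gene of a deubiquitinating enzyme of the proteasome, by 0.40 and 0.46 (0.0352 and 0.0185). The UBP6 call was lost under 11 of the 19 alternatives in T12, edgeR and DESeq2 among them, and under 4 in T34. Polyubiquitin gene copies are near repeats, so reads may have been split among them. UBQ3 fell by 0.57 in T12 (adjusted p = 0.0372, with groups that overlap and a call lost under 9 of the 19 alternatives) and UCH1, the gene of a ubiquitin hydrolase, by 0.57 in T34 (0.019). UBQ10 had log2 fold changes of 0.18 and 0.17 and did not pass.

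**Figure D5:**
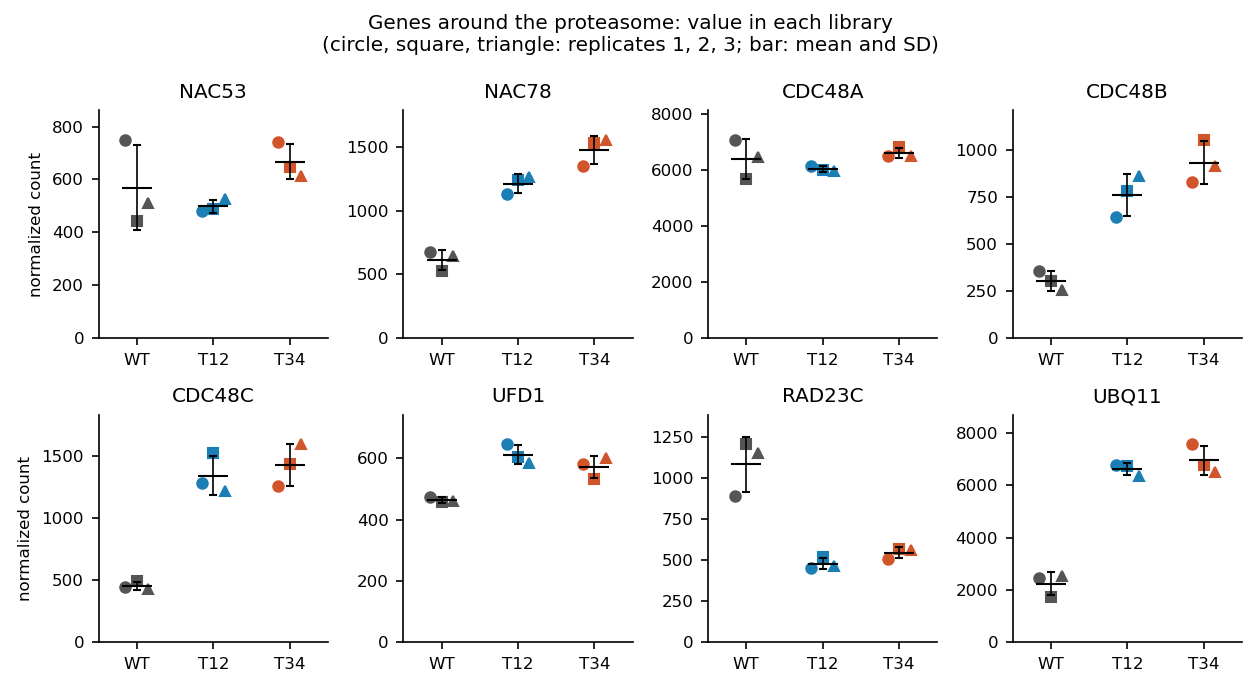
Normalized counts of 8 genes around the proteasome in each library (circles, squares and triangles are replicates 1, 2 and 3 of WT in grey, T12 in blue and T34 in orange; the black bar is the mean with 1 SD). NAC78, CDC48B, CDC48C, UFD1 and UBQ11 are higher in every mutant library than in any WT library and RAD23C is lower, while NAC53 and CDC48A overlap.

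Of the 9 genes with a subunit symbol outside the rule, RPT3 fell in T12 by 0.33 (limma adjusted p = 0.0201), and none passed in T34. That is 11.1% called in T12 and 0% in T34, against 40.2% and 45.2% of all genes tested. RPT3 had 1860.3, 1893 and 1713 normalized counts in WT, 1545, 1456 and 1354 in T12, and 1748, 1685 and 1562 in T34. It is an ATPase gene, as are 3 of the 4 members that fell in T12, where 17.0% of all genes tested fell. Of those 3 calls, that of RPT4B was lost under 7 of the 19 alternatives and that of AT1G53780 under 2. Other ATPase genes did not pass in T12. RPT1A, RPT2b, RPT4A and RPT6B had log2 fold changes of 0.15, 0.05, 0.06 and 0.09 there. RPT2a, RPT5A and RPT6A had -0.31, -0.11 and -0.06. The other 8 had log2 fold changes from -0.31 to 0.33 against WT.

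The make-up of the seedlings was looked at through marker genes. Their sums set T34 apart for shoot and seed, while those of T12 and WT overlapped. The root sums overlapped between all groups. The summed normalized counts of 5 shoot markers were 45148 to 77417 in WT, 61068 to 67178 in T12 and 27055 to 32875 in T34, with 2 higher in T12 and 3 lower in T34. Those of 5 root markers were 1157 to 2613, 1689 to 2698 and 1934 to 2330, with 1 higher and 2 lower of 4 tested in each mutant population, IRT1 at 0 in a T34 library and NRT2.1 at 0 in a WT and a T34 library. Those of 3 seed markers were 45.9 to 2034, 1551.6 to 3600.3 and 7213 to 16661, with 1 higher in T12 and 3 in T34. Whether the markers follow tissue make-up or expression within a tissue was not tested. The part of the markers in the changes of the proteasome genes was not tested either.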

How the data were processed

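The submitters' processing notes name DESeq2 1.22.2, featureCounts 1.6.2, HISAT2 2.1.0 and cutadapt 1.8.1 as tools and TAIR10 as the build, without an order. How reads shared by several genes were counted, with which strand option and which annotation release, is not given in the sources used here. Values of close paralogs and overlapping genes are therefore uncertain. For each of 30271 genes the 2 deposited tables (1 per mutant population, each with the WT libraries) hold a signal per library, the normalized count, which is the count over a library size factor. Per the file headers they also hold the authors' log2 fold change, its standard error and an adjusted p-value. In every library 100% of the deposited values came out as whole reads at a tolerance of 0.01. No column of values was left unused.

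Groups were compared with limma-trend (limma 3.58.1, R 4.3.3) on log2(normalized count + 1), for genes that reached 10 in 3 or more libraries, in 1 fit of all 9 libraries with 3 comparisons; n is 3 libraries per group. A log2 fold change carries its SE, and the scale understates changes of low genes. As the values are not raw counts, edgeR 4.0.16 and DESeq2 1.42.0 on the recovered reads were alternatives only. By edgeR 9593, 10443 and 1368 genes were called in T12 against WT, T34 against WT and T34 against T12. Other alternatives were pseudocounts of 0.5 and 5, no filter or a filter of 50, other scalings, the authors' deposited adjusted p-values, and each library left out. The fits were tested on simulated data. Gene starts, exon lengths and sequences came from RefSeq assembly TAIR10.1, joined by locus, and paralog coding sequences were aligned with mafft 7.526. The members, lists and tests were chosen with earlier results of these data known. Values are given in every library for up to 3 members per role and comparison with the largest changes among those called without overlap and with a mean of at least 100, for members called against the majority direction, for the untested member, and for pairs that differ by 1 or more. Values were also given, after they were seen, for PBD2 and RPN12B and for some genes of the pathway lists. Some items are not reported here.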

Additional observations from a re-analysis of the deposited data

Results flagged for a closer look

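Of the marker genes used to check the seedlings' make-up, 4 of the 5 shoot markers were lower in T34 than in T12, in a direct test of the difference between the mutant populations. The log2 fold changes were -1.14 for RBCS1A and -1.22 for RBCS3B, genes of the small subunit of Rubisco, -2.33 for CA1, a carbonic anhydrase gene, and -1.02 for GAPB, a glyceraldehyde-3-phosphate dehydrogenase gene (limma adjusted p = 0.0416, 0.0147, 0.00345 and 0.0147). No proteasome gene passed that test.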

How the results depend on the processing

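No paired analysis was possible because the labels give no numbers that pair libraries across groups. Over the 39 single-gene changes that passed among the members and the pathway genes, 19 alternative settings gave 741 values, of which 625 kept their direction and call, 116 kept the direction and lost the call, and 0 changed direction. RPN8B and RPN6 in both comparisons, PAE1 in T34 and RPT5B in T12 kept their call under each of the 19. PBD2 in T34 kept it under 6, RPN2B in T12 under 7, PAD1 in T34 under 11, and RPT4B in T12 and RPT5B in T34 under 12 each.

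With upper quartile factors 8 members fell in T12 and 3 in T34. The median log2 fold changes over the members were -0.049 and -0.043, next to -0.044 and -0.054 over all genes. Scaled to nuclear reads other than ribosomal RNA, 11 fell in T12 and 3 in T34, and 4 rose in T34. The medians were then -0.089 and -0.059, next to -0.083 and -0.070 over all genes. In T34 against T12 edgeR and DESeq2 each found 1 member higher. Without the 2 libraries of unclear label, an alternative chosen after seeing the data, 6 rose and 1 fell in T12, 0 fell in T34, and the T34 median was 0.18. The members called were then 14.9% in T12 and 17.0% in T34, against 36.0% and 36.0% of all genes tested. The longer motif TGGGCC was in 41.7% of members, and with a pseudocount of 5 the largest difference within a pair in T34 against WT was 0.70 (PAC). The cause of these differences was not tested.

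With 1 library left out, 2 to 7 members rose and 2 to 7 fell in T12 (7 rose without WT replicate 1, and 6 rose and 7 fell without WT replicate 2), and 4 to 11 rose and 0 to 1 fell in T34 (11 rose without WT replicate 1). The members called were 8.51% to 27.7% in T12, against 30.5% to 49.5% of all genes tested. In T34 they were 8.51% to 25.5%, against 35.3% to 54.2%. The median log2 fold change of the members ranged from -0.084 (without WT replicate 2) to 0.12 in T12 and from 0.0068 (without WT replicate 2) to 0.18 (without WT replicate 1) in T34. Without WT replicate 2, 1 member was higher in T34 than in T12, beside 9.14% of all genes called; without any other single library the count stayed at 0. Of the 37 pathway genes 8 to 14 were called in T12 and 7 to 17 in T34, beside the 30.5% to 49.5% and 35.3% to 54.2% of all genes given above. The calls of low genes are limited by depth, above all in WT replicate 2, where the lowest tested member had 2 reads. The authors' deposited adjusted p-values have no value for T34 against T12.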
